A study of Mus musculus with 19 samples.

Results

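The genes described are 10 genes of hepatic fatty acid synthesis: Acly, Me1, Acaca, Acacb, Fasn, Elovl6, Elovl5, Scd1, Scd2 and Thrsp. The rule lists them by gene symbol, and they were picked with earlier results of these data known. All 10 were found among the 35274 genes listed in the deposited tables, and all 10 were among the 16387 genes that passed the filter on low counts and were tested. They were followed across 3 populations of mouse hepatocytes with 5 samples each.

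All animals carried OPN-CreERT2;Rosa26R-mT/mG, which pairs a tamoxifen-inducible Cre recombinase driven by osteopontin with a reporter that Cre switches from red tdTomato to green fluorescence. GREEN samples were DR-derived hepatocytes of chronically injured liver, and the labels do not spell out DR. RED samples were native tdTomato hepatocytes of chronically injured liver, and CTL samples were native hepatocytes from healthy animals' livers. The agent and length of the injury, the tamoxifen dose, and the age, sex and strain of the animals are not stated in the labels. Osteopontin (Spp1) is itself a biliary gene, so the Cre driver limits the traced population to cells that descend from Spp1-expressing cells. The tests used 1 library per sample, in each group 2 made by poly(A) selection (experiment 1) and 3 made by ribosomal RNA depletion (experiment 2). There were 19 libraries in all, because CTL 5, RED 2, RED 3 and RED 4 had one from each kit.

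Library totals were 22442607 to 34216824 estimated counts in experiment 1 and 38061859 to 44177627 in experiment 2. Levels below are CPM, which are counts relative to library size after TMM scaling, and carry no correction for gene length. Summed hepatocyte markers were 37728 to 89238 CPM in GREEN, 89842 to 130370 CPM in RED and 120380 to 181262 CPM in CTL samples, and were abundant in every library. Summed biliary markers were 592 to 9018 CPM in GREEN, 102 to 441 CPM in RED and 47.6 to 315 CPM in CTL samples. On average most of this sum was Spp1, the gene that drives Cre. Spp1 had 2868 ± 2874 CPM in GREEN, 154 ± 142 CPM in RED and 85.8 ± 120 CPM in CTL (SD, n = 5 each). Endothelial markers summed to 416 to 862 CPM in GREEN, 426 to 2146 CPM in RED and 48 to 159 CPM in CTL samples, and stellate and matrix markers to 939 to 2859 CPM in GREEN, 351 to 2015 CPM in RED and 40.2 to 90.5 CPM in CTL samples. These are bulk samples, in which fewer cells of a type and less RNA per cell cannot be told apart. Y-linked genes were high in 2 GREEN, 2 RED and 3 CTL samples and low in the others. RED 5 and GREEN 5 share a library code but not their Y-linked level (2.97 CPM in GREEN 5 and 157 CPM in RED 5), and GREEN 3 and GREEN 4 share a code with each other. Other samples of 1 code had similar Y-linked levels. These were 12.8 CPM in GREEN 1 and 16.7 CPM in RED 2, and 6.55 CPM in GREEN 2 and 7.45 CPM in RED 3. For the third code they were 117 CPM in GREEN 3, 126 CPM in GREEN 4 and 140 CPM in RED 4. The main fit did not pair samples by code. Whether GREEN 3 and GREEN 4 came from 1 animal is not stated in the labels, and if they did, the GREEN samples would come from 4 animals at most. Over all genes the calls in GREEN versus RED fell to 720 higher and 2 lower without RED 5 and GREEN 5, against 1586 and 528 with them. Leaving out 1 sample also lowered them, to 841 and 55 (RED 1), 775 and 91 (GREEN 3), 844 and 60 (GREEN 4) or 871 and 41 (GREEN 5). Without GREEN 1 they rose to 2181 and 1338, and without GREEN 2 to 1919 and 994.

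De novo lipogenesis turns surplus carbohydrate into fatty acids. ATP citrate lyase (Acly) cleaves exported citrate into acetyl-CoA, acetyl-CoA carboxylase makes malonyl-CoA from it, and fatty acid synthase (Fasn) assembles palmitate with reducing power partly supplied by malic enzyme (Me1). Elongases then lengthen the chain and stearoyl-CoA desaturases put in the first double bond. In liver the pathway is driven by insulin through SREBP-1c, by glucose through ChREBP and by the oxysterol receptor LXR.

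Scd2 was the member that differed in every comparison. It was 13.5-fold higher in RED than in CTL hepatocytes, 7.47-fold higher in GREEN than in RED, and 101.2-fold higher in GREEN than in CTL. Thrsp fell in both injured-liver populations relative to CTL. Acly, Acaca, Acacb and Fasn fell in GREEN relative to CTL. Scd1, Elovl5, Elovl6 and Me1 passed the test in no comparison of the main fit.

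In RED versus CTL, 1 of 10 members was higher and 1 lower, against 16.2% of all tested genes called in either direction, 14.2% higher and 1.99% lower (edgeR quasi-likelihood F test, Benjamini-Hochberg adjusted p threshold 0.05 here and throughout). In GREEN versus RED, 1 of 10 was higher and 0 lower, against 12.9% called, 9.68% higher and 3.22% lower. Of the members not called there, Acly, Acaca and Thrsp had an unadjusted p under 0.05 in the edgeR fit, all lower in GREEN, and DESeq2 called Acly (−0.62, adjusted p = 0.031). In GREEN versus CTL, 1 of 10 was higher and 5 were lower, against 48.2% called, 29.5% higher and 18.6% lower. The median log2 fold change of the members was −0.17 in RED versus CTL, −0.72 in GREEN versus RED and −0.80 in GREEN versus CTL. Over all tested genes the medians were 0.05, −0.02 and 0.11. For the 14 matched hepatocyte markers they were −0.40, −0.90 and −1.34, with 0, 1 and 12 of 14 called lower, and the part of hepatocyte RNA content in the members' values was not tested. The comparisons share samples and are not independent.

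Directions depended on scaling for the members with small differences. Scaling by library totals instead of TMM shifted the all-gene median to 0.33 in RED versus CTL, 0.42 in GREEN versus RED and 0.83 in GREEN versus CTL. It gave 4289 genes higher and 40 lower in GREEN versus RED, against 1586 and 528 with TMM, and 10077 higher and 467 lower in GREEN versus CTL, against 4840 and 3051. With it Scd2 (7.43), Acacb (−1.53) and Thrsp (−1.997) kept their calls in GREEN versus CTL, whereas Fasn (−0.74), Acaca (−0.25) and Acly (−0.33) did not, although each stayed below the shifted median. Me1 changed sign in all comparisons, Elovl6 in GREEN versus CTL (0.07) and Acaca in RED versus CTL (0.07), none of them called.

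**Figure D1:**
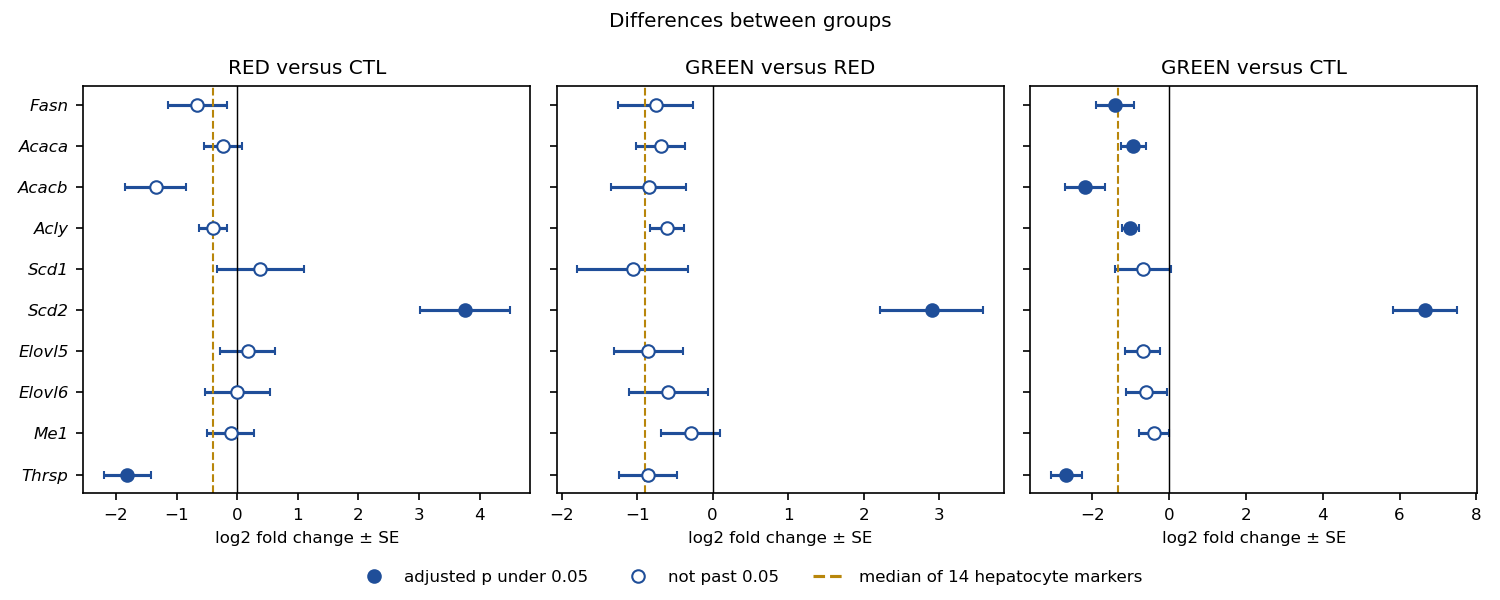
Log2 fold change (x axis) of each lipogenesis gene (y axis) in 3 comparisons, with bars of ± 1 standard error from the edgeR fit over 15 samples. Filled points passed an adjusted p of 0.05 and the dashed line is the median of 14 hepatocyte markers. Scd2 lies at 3.76, 2.90 and 6.66, and the filled points left of 0 are Thrsp in RED versus CTL and Fasn, Acaca, Acacb, Acly and Thrsp in GREEN versus CTL.

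Carbon and NADPH supply came first in the pathway. Acly (ENSMUSG00000020917.17, GRCm38 chromosome 11, 100476353 to 100528000, minus strand) had 308, 443, 305, 223 and 218 CPM in GREEN 1 to 5, 458, 353, 514, 492 and 412 CPM in RED 1 to 5, and 748, 723, 673, 430.0 and 381 CPM in CTL 1 to 5. Only GREEN 2 lay within the CTL range, and CTL 4 and CTL 5 lay within the RED range. Acly averaged 299 ± 91.1 CPM in GREEN, 446 ± 64.4 CPM in RED and 591 ± 172 CPM in CTL (SD, n = 5 each). The log2 fold change in GREEN versus CTL was −1.01 (SE 0.23, adjusted p = 0.0029), with −1.17 (adjusted p = 0.010) in experiment 1 alone and −0.81 (adjusted p = 0.092) in experiment 2 alone. Between GREEN and RED the difference was −0.60 (SE 0.23, adjusted p = 0.090), and between RED and CTL −0.40 (SE 0.23, adjusted p = 0.29). Without GREEN 2 the difference from RED was −0.75 and passed the threshold (adjusted p = 0.037). It also passed in experiment 1 alone (−1.13, adjusted p = 0.014) and with the experiment 1 library of the repeated samples (−1.09, adjusted p = 0.0054). In experiment 2 alone it did not (−0.36, adjusted p = 0.85). Me1, the cytosolic malic enzyme, had 92.5 ± 47.4 CPM in GREEN, 112 ± 55.3 CPM in RED and 119 ± 44.5 CPM in CTL samples. Its groups overlapped almost wholly, with log2 fold changes of −0.11 (SE 0.39) in RED versus CTL, −0.29 (SE 0.39) in GREEN versus RED and −0.40 (SE 0.39) in GREEN versus CTL.

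Both acetyl-CoA carboxylases fell in GREEN relative to CTL. Acaca encodes the cytosolic enzyme whose malonyl-CoA feeds synthesis, and Acacb the mitochondrial-surface enzyme whose malonyl-CoA restrains fatty acid oxidation. Acacb (ENSMUSG00000042010.16, chromosome 5, 114146535 to 114250761, plus strand) had 36.04, 114, 59.3, 28.4 and 11.1 CPM in GREEN 1 to 5, 21.7, 40.1, 151, 122 and 77.8 CPM in RED 1 to 5, and 260.0, 308, 212, 94.2 and 114 CPM in CTL 1 to 5. Only GREEN 2 reached the CTL range, while RED 3 and RED 4 lay inside it. The log2 fold change was −2.19 (SE 0.52, adjusted p = 0.0037) in GREEN versus CTL, −0.85 (SE 0.50, adjusted p = 0.26) in GREEN versus RED and −1.35 (SE 0.50, adjusted p = 0.092) in RED versus CTL. DESeq2 called the last of these (−1.36, adjusted p = 0.032). Within experiment 1 alone the GREEN versus CTL change of Acacb was −2.64 (adjusted p = 0.022), and within experiment 2 alone −1.71 (adjusted p = 0.075).

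Acaca (ENSMUSG00000020532.18, chromosome 11, 84129672 to 84401651, plus strand) had 119.8, 228, 126, 61.8 and 47.5 CPM in GREEN 1 to 5, 97.2, 139, 319, 209.8 and 134 CPM in RED 1 to 5, and 201, 224, 252, 123 and 178 CPM in CTL 1 to 5. The RED values straddled the CTL range, and 3 of 5 GREEN values lay below it. The log2 fold change was −0.93 (SE 0.33, adjusted p = 0.030) in GREEN versus CTL, −0.69 (SE 0.32, adjusted p = 0.16) in GREEN versus RED and −0.24 (SE 0.32, adjusted p = 0.71) in RED versus CTL. With a replicate block the GREEN versus RED change was −0.82 by library code (adjusted p = 0.095) and −0.70 by title number (adjusted p = 0.14). With the codes of experiment 2 alone as a block, a choice made after the data were seen, it was −0.72 and passed (adjusted p = 0.044). The call against CTL was lost without GREEN 1 (−0.90, adjusted p = 0.051), GREEN 3 (−0.87, 0.064), GREEN 4 (−0.83, 0.086) or GREEN 5 (−0.73, 0.099), and without RED 5 and GREEN 5 together (−0.76, 0.11). In experiment 1 alone the change was −1.54 (adjusted p = 0.033) and in experiment 2 alone −0.35 (adjusted p = 0.51). Of the 31-base words of Acaca transcripts, 33.4% also occur in other genes, most of them in the processed pseudogene Gm5182. That pseudogene had at most 134 estimated counts in a library, and reads of the pair could have been split either way.

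The balance between the 2 carboxylases shifted in both injured-liver populations. Acacb made up 19.0% to 33.3% of the summed counts of both genes in GREEN samples, 18.3% to 36.9% in RED samples and 39.0% to 57.9% in CTL samples. Neither GREEN nor RED overlapped CTL. The log2 ratio of Acacb over Acaca averaged −1.41 ± 0.48 in GREEN, −1.32 ± 0.63 in RED and −0.09 ± 0.48 in CTL (SD, n = 5 each). The difference was −1.32 in GREEN versus CTL and −1.23 in RED versus CTL, each with p = 0.01667 and adjusted p = 0.03 over 9 tests in a two-sided exact permutation test within experiments, whose smallest possible p is 0.01667. Between GREEN and RED the difference was −0.09 (exact permutation p = 0.78, adjusted p = 0.88), and leaving out each sample moved it between −0.31 and 0.14. Leaving out a sample also lowers the number of permutations. An unadjusted p of 0.01667 was still reached without GREEN 4 in GREEN versus CTL. The RED versus CTL call was lost without CTL 2 (−1.11, adjusted p = 0.06), CTL 3 (−1.22, 0.09), CTL 4 (−1.26, 0.09), RED 2 (−1.06, 0.06), RED 3 (−1.26, 0.06) or RED 4 (−1.35, 0.06). The GREEN versus CTL call was lost without GREEN 1 (−1.19, adjusted p = 0.06), GREEN 2 (−1.39, 0.06), GREEN 3 (−1.37, 0.06), CTL 3 (−1.30, 0.075) or CTL 4 (−1.34, 0.075). A ratio of this kind shows unequal change of the pair, not which of them moved.

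Fasn (ENSMUSG00000025153.9, chromosome 11, 120805846 to 120824547, minus strand), which carries all the catalytic steps of palmitate synthesis on a single chain, had 304.5, 1092, 843, 281 and 244 CPM in GREEN 1 to 5, 536, 314, 1299, 1492 and 701 CPM in RED 1 to 5, and 2113, 1897, 1578, 531 and 577 CPM in CTL 1 to 5. GREEN 2 and GREEN 3 lay within the CTL range, as did 4 of 5 RED samples. CTL 4 and CTL 5 were well below the other CTL samples. The log2 fold change was −1.41 (SE 0.50, adjusted p = 0.033) in GREEN versus CTL, −0.75 (SE 0.50, adjusted p = 0.32) in GREEN versus RED and −0.66 (SE 0.49, adjusted p = 0.45) in RED versus CTL. The call was lost without CTL 1 (−1.41, adjusted p = 0.052), CTL 3 (−1.21, 0.065), GREEN 1 (−1.24, 0.062), GREEN 4 (−1.32, 0.080) or GREEN 5 (−1.27, 0.088), and without RED 5 and GREEN 5 together (−1.29, 0.099). Within single experiments it was −1.55 (experiment 1, adjusted p = 0.13) and −1.03 (experiment 2, adjusted p = 0.34).

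Thrsp (Spot 14, a thyroid hormone-responsive protein that promotes lipogenesis) was the member most clearly lower in both injured-liver populations. Thrsp (ENSMUSG00000035686.8, chromosome 7, 97412938 to 97417730, minus strand) had 28.5, 80.0, 27.2, 19.1 and 18.0 CPM in GREEN 1 to 5, 58.3, 33.0, 99.8, 57.4 and 52.8 CPM in RED 1 to 5, and 255, 144, 248, 222 and 168 CPM in CTL 1 to 5. Every GREEN and every RED sample lay below every CTL sample, while GREEN 2 alone made GREEN and RED overlap. Means were 34.6 ± 25.8 CPM in GREEN, 60.3 ± 24.4 CPM in RED and 207 ± 49.2 CPM in CTL (SD, n = 5 each). The RED level was 0.285 times the CTL level (log2 fold change −1.81, SE 0.39, adjusted p = 0.0049), and the GREEN level 0.157 times (−2.67, SE 0.41, adjusted p = 2.0e-04). The last change was past the threshold in all 26 settings tried, the main one included. In GREEN versus RED the log2 fold change was −0.86 (SE 0.39, adjusted p = 0.15). Without GREEN 2 that difference was −1.37 and passed (adjusted p = 0.0085). With a replicate block it was −0.89 by library code (adjusted p = 0.076) and −0.91 by title number (adjusted p = 0.19), and with the codes of experiment 2 alone, chosen after the data were seen, −0.95 (adjusted p = 0.023). In experiment 1 alone it was −1.88 (adjusted p = 0.0063), and in experiment 2 alone −0.49 (adjusted p = 0.89). With the experiment 1 library of the repeated samples it was −1.40 and passed (adjusted p = 0.0499). The RED versus CTL change was −1.70 (adjusted p = 0.0098) in experiment 1 and −1.58 (adjusted p = 0.12) in experiment 2.

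Promoters are shown for Fasn, Acaca, Acacb, Acly and Thrsp, because these 5 members were lower together in GREEN than in CTL samples. Each runs from 250 bases before to 50 after the RefSeq start on the strand of the gene (GRCm38.p6). Capitals mark the CCAAT box, read as ATTGG where it lies on the opposite strand, and the GC box, searched as the letters GGGCGG on both strands.
Fasn, chr11:120824498-120824797, minus strand: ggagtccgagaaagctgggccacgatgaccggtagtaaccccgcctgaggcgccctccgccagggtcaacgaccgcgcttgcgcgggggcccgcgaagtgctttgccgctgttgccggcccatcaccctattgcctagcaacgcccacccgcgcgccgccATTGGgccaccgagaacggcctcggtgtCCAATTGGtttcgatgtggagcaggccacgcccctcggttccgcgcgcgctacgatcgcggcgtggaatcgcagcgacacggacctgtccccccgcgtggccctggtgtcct
Acaca, chr11:84195188-84195487, plus strand: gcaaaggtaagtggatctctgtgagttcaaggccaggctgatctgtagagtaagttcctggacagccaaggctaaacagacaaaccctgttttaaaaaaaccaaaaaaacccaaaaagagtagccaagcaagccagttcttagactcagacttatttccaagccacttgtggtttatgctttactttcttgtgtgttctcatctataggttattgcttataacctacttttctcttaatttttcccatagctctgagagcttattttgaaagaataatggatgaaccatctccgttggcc
Acacb, chr5:114165268-114165567, plus strand: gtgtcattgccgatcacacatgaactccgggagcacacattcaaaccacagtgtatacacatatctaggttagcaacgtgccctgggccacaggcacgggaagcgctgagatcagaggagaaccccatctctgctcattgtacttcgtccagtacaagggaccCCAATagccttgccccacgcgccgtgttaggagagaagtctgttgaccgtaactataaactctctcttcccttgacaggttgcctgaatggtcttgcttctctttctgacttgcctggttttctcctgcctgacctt
Acly, chr11:100527951-100528250, minus strand: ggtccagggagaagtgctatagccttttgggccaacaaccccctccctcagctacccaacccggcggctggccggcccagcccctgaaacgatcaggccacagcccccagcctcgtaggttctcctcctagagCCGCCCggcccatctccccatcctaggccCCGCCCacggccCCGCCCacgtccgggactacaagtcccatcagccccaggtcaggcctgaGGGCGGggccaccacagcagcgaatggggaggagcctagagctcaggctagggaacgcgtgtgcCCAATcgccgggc
Thrsp, chr7:97417501-97417800, minus strand: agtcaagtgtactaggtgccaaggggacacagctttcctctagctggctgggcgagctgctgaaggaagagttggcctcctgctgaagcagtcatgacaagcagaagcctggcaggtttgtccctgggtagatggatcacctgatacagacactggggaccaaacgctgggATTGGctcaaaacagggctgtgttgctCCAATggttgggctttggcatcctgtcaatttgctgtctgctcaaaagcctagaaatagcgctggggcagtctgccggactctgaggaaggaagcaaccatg
Promoters were matched for 8 of the members, 9 windows in all since Me1 has 2. CCAAT was found on either strand in 6 of 9 windows and in 37.4% of 32851 promoters of the same length. The RefSeq starts of Acaca and Acacb lie inside the spans given above for these genes. The window of Acaca holds none of the letters searched. In Fasn a forward and a reverse match overlap within CCAATTGG. The GC box was found in 2 of 9 windows (Acly and Me1) and in 35.7% of all promoters, and the E-box CACGTG in 1 (Elovl5) and in 7.15%. The letters TCACNCCAC, one form of the sterol regulatory element, were in 0 of 9 windows and in 1.24% of all promoters. These matches describe letters within the windows only.

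The 2 elongases did not pass the test in any comparison of the main fit. Elovl6 lengthens palmitate to stearate and Elovl5 acts mainly on polyunsaturated chains. Elovl6 ranged over 31.1 to 162 CPM in GREEN, 37.3 to 187 CPM in RED and 61.9 to 217 CPM in CTL samples, with log2 fold changes of −0.59 (SE 0.53, adjusted p = 0.48) in GREEN versus RED, −0.59 (SE 0.54, adjusted p = 0.39) in GREEN versus CTL and 0.00 (SE 0.54, adjusted p = 1.00) in RED versus CTL. Elovl5 ranged over 132 to 597 CPM in GREEN, 375 to 795 CPM in RED and 200.4 to 758 CPM in CTL samples. Its log2 fold change was −0.85 (SE 0.45, adjusted p = 0.22) in GREEN versus RED, −0.68 (SE 0.45, adjusted p = 0.23) in GREEN versus CTL and 0.17 (SE 0.45, adjusted p = 0.86) in RED versus CTL. With the experiment 1 library of the repeated samples the GREEN versus RED change of Elovl5 was −1.45 and passed (adjusted p = 0.042). The log2 ratio of Elovl6 over Elovl5 differed by 0.27 between GREEN and RED, −0.04 between GREEN and CTL and −0.31 between RED and CTL, with exact permutation p-values of 0.57, 0.97 and 0.60 (adjusted p = 0.77, 0.97 and 0.77).

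The 2 desaturases behaved differently. Scd1 is the main stearoyl-CoA desaturase of adult mouse liver, whereas Scd2 is best known from brain and from liver around birth. Scd1 (ENSMUSG00000037071.2, chromosome 19, 44394455 to 44407879, minus strand) had 1153, 7196, 3334, 2221 and 458 CPM in GREEN 1 to 5, 1567, 1512, 8858, 6949 and 8476 CPM in RED 1 to 5, and 5744, 5890, 6288, 1050 and 2308 CPM in CTL 1 to 5. High and low samples occurred in all groups, and the highest GREEN sample was 15.7 times the lowest. The log2 fold change was −0.68 (SE 0.73, adjusted p = 0.47) in GREEN versus CTL, −1.06 (SE 0.74, adjusted p = 0.35) in GREEN versus RED and 0.38 (SE 0.72, adjusted p = 0.80) in RED versus CTL.

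Scd2 (ENSMUSG00000025203.5, chromosome 19, 44293674 to 44306864, plus strand) had 23.2, 51.8, 210.0, 248 and 129 CPM in GREEN 1 to 5, 5.43, 3.92, 22.3, 19.3 and 35.8 CPM in RED 1 to 5, and 1.14, 2.06, 0.709, 0.798 and 1.30 CPM in CTL 1 to 5. All RED and all GREEN values lay above all CTL values, and only GREEN 1 lay within the RED range. Means were 132 ± 97.2 CPM in GREEN, 17.4 ± 13.2 CPM in RED and 1.20 ± 0.54 CPM in CTL (SD, n = 5 each). The log2 fold change was 6.66 (SE 0.83, adjusted p = 4.96e-05) in GREEN versus CTL, 3.76 (SE 0.74, adjusted p = 0.0026) in RED versus CTL and 2.90 (SE 0.69, adjusted p = 0.016) in GREEN versus RED. The GREEN versus CTL change was 7.77 in experiment 1 alone (adjusted p = 4.2e-04) and 5.98 in experiment 2 alone (adjusted p = 0.0059). The RED versus CTL change was 4.32 (adjusted p = 0.011) in experiment 1 and 3.34 (adjusted p = 0.065) in experiment 2, and limma-voom did not call it (3.49, adjusted p = 0.071). The GREEN versus RED change was 3.46 (adjusted p = 0.0047) in experiment 1 and 2.65 (adjusted p = 0.29) in experiment 2, and its call was lost without RED 1 (2.53, adjusted p = 0.051), GREEN 3 (2.43, 0.070) or GREEN 4 (2.53, 0.056).

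Some markers of other liver cells went with Scd2 across the samples of a group, and others did so only in part. GREEN 1 and GREEN 2, the lowest GREEN samples for Scd2, had summed biliary markers of 592 and 846 CPM, and GREEN 3, GREEN 4 and GREEN 5 had 3416, 9018 and 4626 CPM. Most of the mean GREEN sum was Spp1 (2868 ± 2874 CPM), the gene that drives Cre. With each marker weighed alike, mean log2 CPM was 3.57, 4.39, 6.41, 6.60 and 5.73 in GREEN 1 to 5, experiment effect removed. All 15 biliary markers were higher in GREEN than in CTL samples and 13 of 15 were higher than in RED. The defining biliary keratin Krt19 averaged 54.9 ± 41.0 CPM in GREEN, 0.488 ± 0.247 CPM in RED and 0.0114 ± 0.0255 CPM in CTL. RED 1 and RED 2, with Scd2 at 5.43 and 3.92 CPM, had summed endothelial markers of 426 and 469 CPM, and RED 3, RED 4 and RED 5 had 889, 1567 and 2146 CPM. In GREEN 1 to 5 endothelial markers were 550, 587, 849, 862 and 416 CPM, lowest in GREEN 5. Biliary markers were 102, 176, 108, 270 and 441 CPM in RED 1 to 5, and macrophage markers 544, 105, 283, 767 and 1387 CPM. Macrophage markers in GREEN 1 to 5 were 138.7, 198.6, 413.7, 574.5 and 446 CPM, lowest in GREEN 1 and GREEN 2. Stellate and matrix markers were lowest in GREEN 1 and GREEN 2 and in RED 1 and RED 2 within their groups. All 12 endothelial, all 12 stellate and matrix and all 12 macrophage markers were higher in RED than in CTL samples. The part of these cells in the Scd2 values was not tested. Of 10 adipocyte markers 6 could be tested and none was called, with summed levels of 4.10 to 20.1 CPM in GREEN, 6.15 to 23.2 CPM in RED and 9.75 to 28.9 CPM in CTL.

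Scd1 and Scd2 lie near each other on chromosome 19 and are close copies, so their counts depend on how reads were assigned. Their longest open reading frames have 1068 and 1077 bases, and 965 of 1068 aligned bases (90.4%) are the same, with a longest shared run of 147 bases. Over all transcripts 8.14% of the 31-base words of Scd1 and 6.81% of those of Scd2 occur in another gene, among them Scd3 and Scd4. Scd3 had at most 76 and Scd4 at most 22 estimated counts in any library. The 90-base ungapped window in which the reading frames differ most is shown as an example of how the pair differ, with the 30 differing bases in capitals.
Scd1, coding bases 75 to 164: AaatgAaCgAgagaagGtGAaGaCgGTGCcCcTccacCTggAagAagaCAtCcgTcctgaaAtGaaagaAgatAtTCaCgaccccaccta
Scd2, coding bases 84 to 173: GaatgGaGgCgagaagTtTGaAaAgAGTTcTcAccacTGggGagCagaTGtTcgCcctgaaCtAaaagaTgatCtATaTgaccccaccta

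The ratio within a library does not depend on how libraries were scaled. Scd2 made up 1.97%, 0.715%, 5.93%, 10.0% and 21.98% of the summed Scd1 and Scd2 counts in GREEN 1 to 5. In RED 1 to 5 it made up 0.346%, 0.258%, 0.251%, 0.277% and 0.421%, and in CTL 1 to 5 it made up 0.0199%, 0.0348%, 0.0113%, 0.0760% and 0.0563%. The 3 groups did not overlap, the RED values were the most alike, and Scd1 had more counts than Scd2 in every sample. The log2 ratio averaged −4.35 ± 2.08 in GREEN, −8.36 ± 0.32 in RED and −11.61 ± 1.12 in CTL (SD, n = 5 each). The difference was 4.01 between GREEN and RED, 7.26 between GREEN and CTL and 3.25 between RED and CTL, each with p = 0.01667 and adjusted p = 0.03 in the same exact permutation test. Leaving out each sample moved these differences over 3.62 to 4.55, 6.58 to 7.84 and 2.75 to 3.66. In GREEN versus RED the adjusted p was no longer under 0.05 without RED 2 (4.12, adjusted p = 0.06), RED 3 (4.11, 0.06) or RED 4 (4.14, 0.06). The unadjusted p was 0.03333 in each of these fits. The adjusted p was 0.05 in GREEN versus CTL without CTL 3 or CTL 4, where the unadjusted p stayed at 0.01667. In RED versus CTL the adjusted p was 0.05 to 0.06 without CTL 3, CTL 4 or any 1 RED sample.

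**Figure D2:**
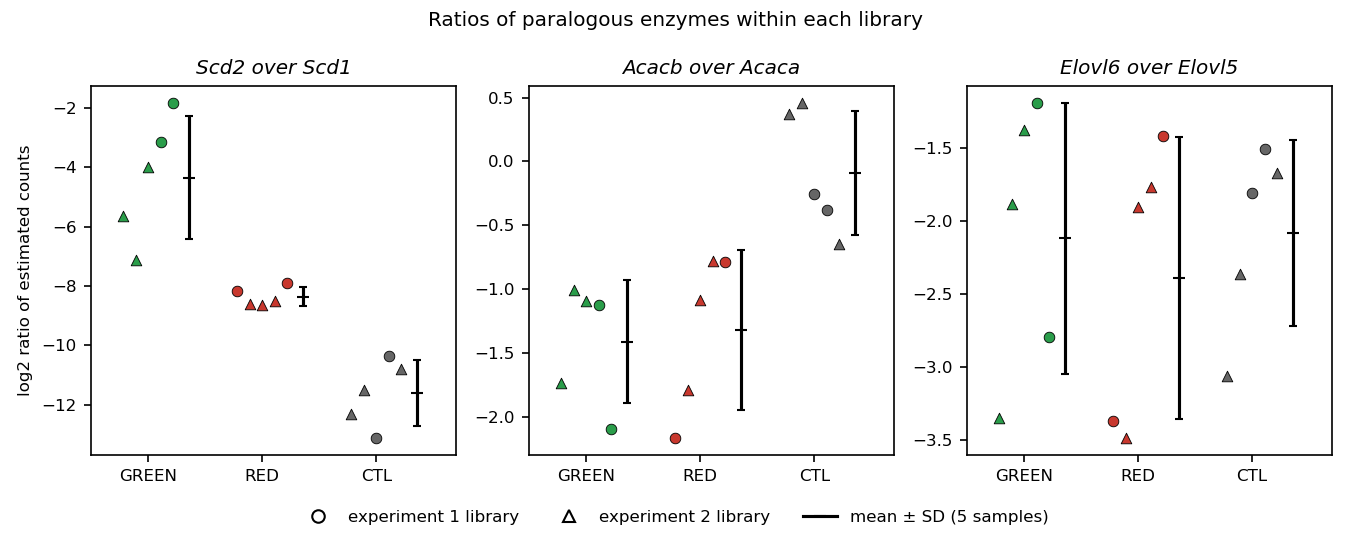
Log2 ratio of estimated counts of paralogous enzymes within each library (y axis) by group (x axis), with circles for experiment 1, triangles for experiment 2 and bars for the mean ± SD of 5 samples. Scd2 over Scd1 averaged −4.35 in GREEN, −8.36 in RED and −11.61 in CTL with no overlap, Acacb over Acaca was below all CTL samples in GREEN and RED, and Elovl6 over Elovl5 overlapped in all groups.

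**Figure D3:**
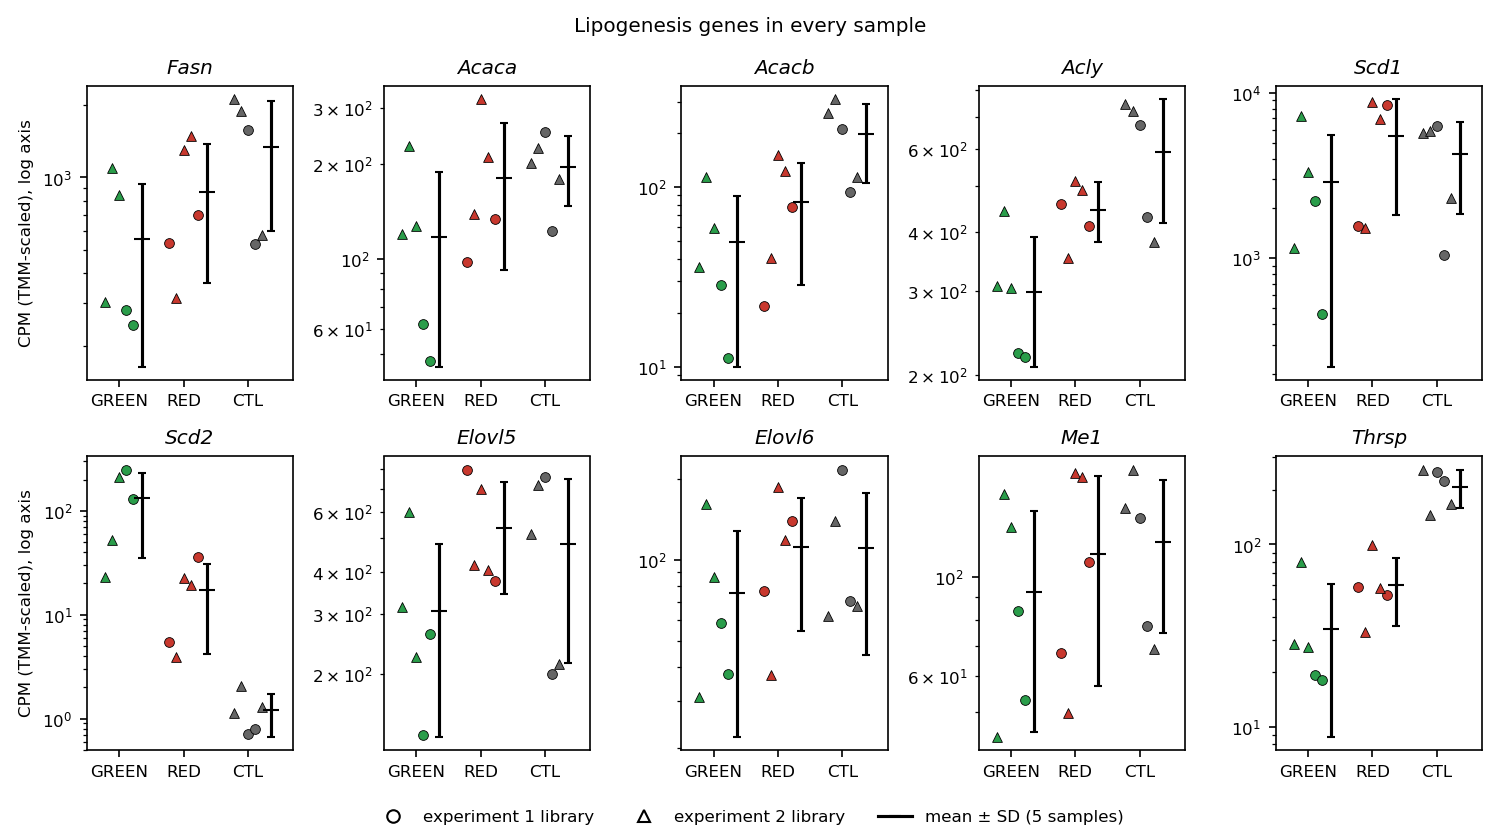
CPM after TMM scaling (y axis, log scale, a different range in each panel) of the 10 lipogenesis genes in every sample by group (x axis), with replicates 1 to 5 from left to right, circles for experiment 1, triangles for experiment 2 and bars for the mean ± SD. Scd2 ranged over 23.2 to 248 CPM in GREEN, 3.92 to 35.8 CPM in RED and 0.709 to 2.06 CPM in CTL, and Thrsp was above 144 CPM in CTL samples only.

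Samples of 1 group differed widely in these genes. The summed level of the 10 members, most of it Scd1, was 2364, 10116, 5347, 3357 and 1477 CPM in GREEN 1 to 5, 3683, 2899, 12319, 10031 and 10513 CPM in RED 1 to 5, and 10043, 10216, 10361, 2799 and 4077 CPM in CTL 1 to 5. Each group thus held samples with a several-fold lower total than its highest sample. Acly varied least within GREEN and RED, with a highest sample 2.03 and 1.46 times the lowest (1.96 times in CTL), and Scd1 varied by 15.7 times in GREEN, 5.86 in RED and 5.99 in CTL. Fasn, Elovl6, Me1 and Scd1 were all below their means in GREEN 1, GREEN 5, RED 2 and CTL 5, after the experiment effect was removed. They were all above their means in GREEN 2, RED 3, RED 4, RED 5, CTL 2 and CTL 3.

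**Figure D4:**
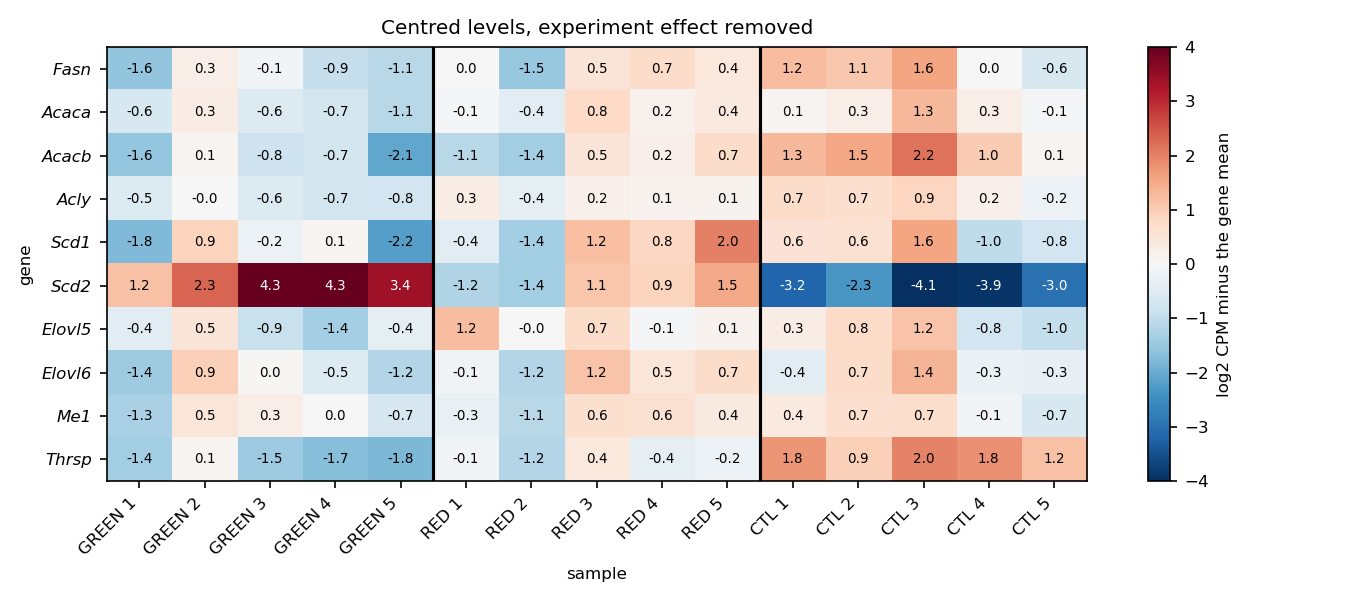
Log2 CPM minus the gene's mean over 15 samples after removal of the experiment effect (colour, numbers in cells, capped at ±4) for the 10 lipogenesis genes (rows) in each sample (columns), with GREEN left of RED and RED left of CTL. Scd2 is high in all GREEN and low in all CTL samples, whereas most other genes have high and low samples in each group.

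Levels of different genes were compared per kilobase of the longest coding transcript. In CTL samples Scd1 stood first at 881 ± 497 CPM per kb, followed by Elovl5 (173 ± 95.6), Thrsp (162 ± 38.5), Acly (134 ± 39.0) and Fasn (133 ± 73.8 CPM per kb). The last 4 of these do not differ beyond their spread. Me1 (36.3 ± 13.5), Acacb (22.5 ± 10.5), Acaca (20.6 ± 5.17) and Elovl6 (18.7 ± 11.2 CPM per kb) formed a lower group with overlapping spread, and Scd2 was last at 0.220 ± 0.099. In RED samples Scd1 was again first (1133 ± 758 CPM per kb) and Scd2 last (3.18 ± 2.41), with Thrsp at 47.2 ± 19.1. In GREEN samples Scd1 averaged 594 ± 549 CPM per kb, and Scd2 (24.3 ± 17.8) stood beside Thrsp (27.1 ± 20.2) and Me1 (28.1 ± 14.4) and above Acacb (5.66 ± 4.52 CPM per kb).

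The library kit changed some members more than others. CTL 5, RED 2, RED 3 and RED 4 had a library from each kit. The log2 CPM of Fasn was 0.35 to 0.95 higher with ribosomal depletion than with poly(A) selection in these 4 samples, that of Acaca 0.37 to 0.91 higher and that of Acacb 0.54 to 0.83 higher. Thrsp was lower with ribosomal depletion in all 4 (−0.35 to −0.14). Scd2 was 0.07 to 0.20 higher, Me1 was 0.05 to 0.28 higher, and Acly, Scd1, Elovl5 and Elovl6 had differences on both sides of 0. Fasn, Acaca and Acacb have the longest transcripts of the members (10.05, 9.51 and 8.79 kb) and Thrsp the shortest (1.28 kb). In a model with a group by experiment term no member passed the threshold, and the smallest unadjusted p-values, both for GREEN versus CTL, were 0.027 for Acaca (adjusted p = 0.34) and 0.043 for Thrsp (adjusted p = 0.38).

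**Figure D5:**
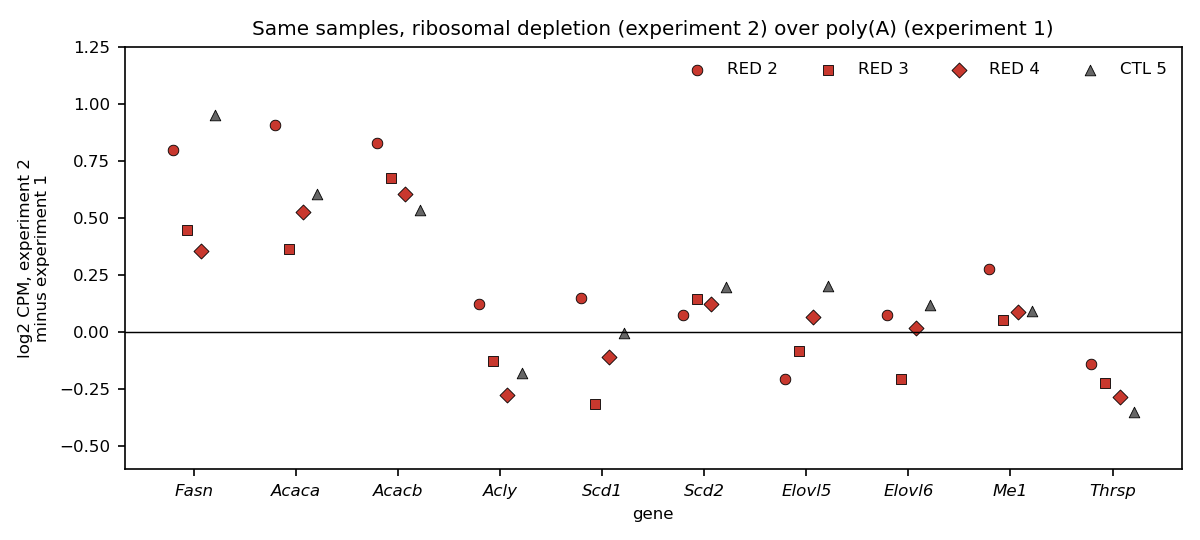
Difference in log2 CPM between the ribosomal depletion library and the poly(A) library of the same sample (y axis) for each lipogenesis gene (x axis), in 3 RED samples and 1 CTL sample. Fasn, Acaca and Acacb lie above 0 in all 4 samples and Thrsp below 0.

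Genes around the pathway were counted from 5 lists of symbols. Most of their GREEN versus RED calls depended on single samples. Of the 10 genes of these lists called in GREEN versus RED, only Elovl7 kept its call whichever of the 15 samples was left out, and the other 9 each lost it without 4 to 9 of them. Without RED 5 and GREEN 5 together these 9 were not called (adjusted p = 0.12 to 0.16), and in experiment 2 alone 0 of the 10 were called. In RED versus CTL 4 of 6 calls held without any 1 sample, and Me2 and Cyb5r3 lost theirs. In GREEN versus CTL 37 of 46 did, among them every gene named below for that comparison. In experiment 2 alone 15 of these 46 calls and 2 of the 6 in RED versus CTL were kept, against 39 and 4 in experiment 1 alone. Genes named below without their GREEN versus CTL call in experiment 2 alone were Nr1h3, Mlxipl, Slc25a1, Cyb5a, Dgat2, Agpat3 and Mlycd. For RED versus CTL they were Scap, Me2, Elovl7 and Cyb5r3. With library totals in place of TMM, 17 of the 46 calls in GREEN versus CTL, 3 of the 10 in GREEN versus RED and 5 of the 6 in RED versus CTL were kept. Genes named below that lost their GREEN versus CTL call with library totals were Nr1h3, Akt2, Slc25a1, Mdh1, Gpam, Agpat3, Hlcs, Prkaa2 and Mlycd. In GREEN versus RED only Elovl7, Fads3 and Mttp kept theirs, and in RED versus CTL Cyb5r3 lost its call. Over all tested genes 29.5% were higher and 18.6% lower in GREEN versus CTL. The shares were 9.68% and 3.22% in GREEN versus RED, and 14.2% and 1.99% in RED versus CTL. Of 20 regulators of lipogenesis, 0 were higher and 10 lower in GREEN versus CTL (median log2 fold change −0.69), 0 and 2 in GREEN versus RED (−0.49) and 0 and 1 in RED versus CTL (−0.28). Scap, which escorts SREBP out of the endoplasmic reticulum, averaged 88.4 ± 37.7 CPM in GREEN, 119 ± 30.7 CPM in RED and 213 ± 50.4 CPM in CTL. It fell in GREEN versus CTL (−1.35, adjusted p = 2.1e-04) and in RED versus CTL (−0.88, adjusted p = 0.0083). Insig1, which retains Scap there, fell in GREEN versus CTL (−1.45, adjusted p = 6.1e-04) and versus RED (−0.88, adjusted p = 0.040, and 0.13 without RED 5 and GREEN 5). Nr1h3, encoding LXR alpha, fell in both as well (−0.91, adjusted p = 0.0054, and −0.79, adjusted p = 0.039, the second not called without RED 5 and GREEN 5, adjusted p = 0.16), and the insulin-signalling kinase gene Akt2 fell in GREEN versus CTL (−0.71, adjusted p = 8.2e-04). Srebf1 and Mlxipl, which encode SREBP-1 and ChREBP, are given for their role and were added after values were seen. Srebf1 passed in no comparison (−0.37 in GREEN versus CTL, adjusted p = 0.53, and 0.14 in RED versus CTL, adjusted p = 0.89), and Mlxipl fell in GREEN versus CTL (112 ± 68.9 CPM in GREEN and 294 ± 65.8 CPM in CTL, −1.44, adjusted p = 0.0062).

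Of 16 genes of carbon and NADPH supply, 2 were higher and 8 lower in GREEN versus CTL, 0 and 3 in GREEN versus RED, and 1 and 0 in RED versus CTL, with median log2 fold changes of −0.85, −0.63 and −0.22. Khk, the fructose kinase, averaged 128 ± 34.1 CPM in GREEN, 232 ± 67.4 CPM in RED and 311 ± 26 CPM in CTL, and fell in GREEN versus CTL (−1.26, adjusted p = 3.3e-04) and versus RED (−0.83, adjusted p = 0.022, and 0.12 without RED 5 and GREEN 5). Slc25a1, the mitochondrial citrate carrier that supplies the substrate of Acly, fell in the same comparisons (−0.96, adjusted p = 7.5e-04, and −0.62, adjusted p = 0.038). The cytosolic dehydrogenase genes Mdh1 (−1.10 in GREEN versus CTL, adjusted p = 0.0023) and Idh1 (−0.81 in GREEN versus RED, adjusted p = 0.038) fell too. Me2, the mitochondrial malic enzyme, rose in GREEN (12.0 ± 9.06 CPM) and RED (3.94 ± 3.07 CPM) against CTL (0.805 ± 0.372 CPM), with log2 fold changes of 3.81 (adjusted p = 5.4e-04) and 2.20 (adjusted p = 0.030). Without RED 5 and GREEN 5 the GREEN versus RED changes of Slc25a1 (−0.50, adjusted p = 0.16) and Idh1 (−0.72, adjusted p = 0.15) and the RED versus CTL change of Me2 (1.81, adjusted p = 0.12) were not called.

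Among 16 other elongases, desaturases and their partners, 2 were higher and 10 lower in GREEN versus CTL, 2 and 1 in GREEN versus RED, and 1 and 1 in RED versus CTL (medians −0.78, −0.52 and −0.22). Elovl7, an elongase of long saturated chains, had 17.5 ± 11.4 CPM in GREEN, 1.54 ± 0.303 CPM in RED and 0.321 ± 0.212 CPM in CTL, and rose in GREEN versus CTL (5.66, adjusted p = 2.6e-05), GREEN versus RED (3.47, adjusted p = 0.0014) and RED versus CTL (2.19, adjusted p = 0.015). Fads3, a member of the fatty acid desaturase family, rose in GREEN versus RED (1.48, adjusted p = 0.038). Cyb5a and Cyb5r3, which pass electrons to the desaturases, fell in GREEN versus CTL (−1.18, adjusted p = 0.0018, and −1.22, adjusted p = 3.4e-04), as did the elongation-cycle dehydratase gene Hacd2 (−1.02, adjusted p = 3.2e-04). Cyb5r3 also fell in RED versus CTL (−0.64, adjusted p = 0.040), and Hacd2 in GREEN versus RED (−0.62, adjusted p = 0.030). Without RED 5 and GREEN 5 these changes of Cyb5r3 (−0.69, adjusted p = 0.060), Hacd2 (−0.51, adjusted p = 0.15) and Fads3 (1.30, adjusted p = 0.16) were not called.

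Of 13 tested genes of triglyceride assembly, 0 were higher and 8 lower in GREEN versus CTL, 0 and 2 in GREEN versus RED, and 0 and 0 in RED versus CTL (medians −0.93, −0.64 and −0.21). Mttp, which loads triglyceride onto apolipoprotein B, averaged 171 ± 72.1 CPM in GREEN, 316 ± 38.4 CPM in RED and 467 ± 95.5 CPM in CTL. It fell in GREEN versus CTL (−1.48, adjusted p = 5.3e-04) and versus RED (−0.92, adjusted p = 0.035), where the groups did not overlap. Gpam, the first acyltransferase of the route, fell in the same comparisons (−1.11, adjusted p = 4.6e-04, and −0.64, adjusted p = 0.042). Without RED 5 and GREEN 5 the GREEN versus RED changes of Mttp (−0.78, adjusted p = 0.15) and Gpam (−0.61, adjusted p = 0.15) were not called. The acyltransferase genes Dgat2 (−1.51, adjusted p = 0.0037) and Agpat3 (−0.69, adjusted p = 0.0047) fell in GREEN versus CTL, where the difference of Agpat3 was 0.01 with library totals. In RED versus CTL the smallest adjusted p-values were those of Gpam (−0.47, adjusted p = 0.13) and Mttp (−0.57, adjusted p = 0.17).

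Of 10 genes that control acetyl-CoA carboxylase or its product, 2 were higher and 4 lower in GREEN versus CTL, 0 and 0 in GREEN versus RED, and 1 and 1 in RED versus CTL (medians −0.28, −0.23 and −0.12). Hlcs, which attaches the biotin that both carboxylases need, had 16.9 ± 3.48 CPM in GREEN, 20.2 ± 3.54 CPM in RED and 33.7 ± 3.87 CPM in CTL. It fell in GREEN versus CTL (−1.01, adjusted p = 2.1e-05) and RED versus CTL (−0.75, adjusted p = 5.2e-04), with no overlap in either. Among subunits of AMP-activated kinase, which inhibits the carboxylases, Prkab2 rose in GREEN versus CTL (2.12, adjusted p = 1.5e-04) and RED versus CTL (1.41, adjusted p = 0.0053), and Prkaa2 fell in GREEN versus CTL (−1.01, adjusted p = 6.6e-04). Mlycd, the malonyl-CoA decarboxylase, fell in GREEN versus CTL (−0.90, adjusted p = 0.0042). In GREEN versus RED, Prkaa2 (−0.53, adjusted p = 0.069) and Mlycd (−0.61, adjusted p = 0.078) came closest to the threshold. With Hlcs (lower) and with Prkaa1 and Prkab2 (both higher) they had an unadjusted p under 0.05, a level whose share over all genes is not given here. The percentages called over all genes, given above for each comparison, are the background of the counts of called genes in these lists.

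The genes whose pattern over the 15 samples was most like that of Fasn, Scd1, Scd2 and Thrsp were ranked by the root mean square difference in centred log2 CPM after the experiment effect was removed. Nearest to Fasn were Acss2 (0.37), which makes acetyl-CoA from acetate, the sterol synthesis genes Pmvk (0.37) and Tm7sf2 (0.42), Rdh11 (0.39) and the water channel gene Aqp8 (0.40), against a standard deviation of Fasn itself of 0.95. Nearest to Scd1 were Aqp8 (0.65), Chrna4 (0.66), Rdh11 (0.67), Serpina7 (0.69) and Aldh1a7 (0.71), and Scd1 had a standard deviation of 1.20. Scd2, with a standard deviation of 2.83, was nearest to Tmsb10 (0.39), the laminin chain genes Lama5 (0.41) and Lamb2 (0.49), Ptpn14 (0.48) and Kirrel (0.52). Thrsp (standard deviation 1.28) was nearest to Ces2a (0.40), Ugt1a10 (0.48), Arrdc3 (0.55), Urad (0.56) and Bhmt (0.57). Among the members themselves the closest pair was Acaca and Acly (0.32), followed by Elovl6 and Me1 (0.41) and Fasn and Me1 (0.46). Scd2 stood 2.92 from its nearest fellow member, Me1.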

How the data were processed

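RNA was measured in 19 libraries of 15 samples, made from 150 ng of total RNA with TruSeq Stranded mRNA (experiment 1) or KAPA RNA HyperPrep with RiboErase (experiment 2), per the labels' protocols. The authors deposited estimated counts per gene, made with kallisto 0.43.1 on GRCm38 per the submitters' processing notes. Neither the annotation release nor the summing of transcripts to genes nor the RNA extraction is given in the sources used here. Such pseudo-alignment divides reads among near-identical sequences, so counts of close copies are estimates.

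Estimated counts were rounded. Each sample entered with 1 library, that of experiment 2 where it had 2. Genes passing filterByExpr (16387) were scaled by TMM and fitted with group and experiment in edgeR 4.0.16 (R 4.3.3), with the quasi-likelihood F test and Benjamini-Hochberg adjustment over all of them. Standard errors belong to the fitted log2 fold change. Ratios were tested by exact permutation within experiments (120 permutations). Symbols, positions and 31-base words came from GENCODE annotation of GRCm38 (34845 of 35274 identifiers, 98.8%), promoters from RefSeq. Of 15 hepatocyte markers 14 were matched.

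On counts simulated for 16135 genes with changes in GREEN only, the test called 0 genes in RED versus CTL and recovered 30% of 2-fold and 80% of 4-fold changes in GREEN versus RED, and 35% and 80% in GREEN versus CTL. The simulated counts held no difference between kits and no other difference between groups, unlike the real libraries, so recovery in these data may differ. Replicates are samples that the design calls biological, and no label names the animals, so p-values measure the spread between these samples. Titles number samples 1 to 5 in each group. Same-numbered samples had deviations from the group mean whose correlation across genes was −0.20 to 0.54, so the title numbers were not taken to pair samples. Library codes pair GREEN 1 with RED 2, GREEN 2 with RED 3 and GREEN 3 with RED 4 in experiment 2 (0.55, 0.38 and 0.74), while in experiment 1 GREEN 4 with RED 4, which share the code of GREEN 3, gave 0.41 and GREEN 5 with RED 5 gave −0.19. GREEN 4 with GREEN 3 gave 0.32.

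All members were named in each comparison. Of each other list up to 4 genes past the threshold with the smallest adjusted p were named, or the 2 with the smallest p where none passed, and for Fasn, Scd1, Scd2 and Thrsp the 5 nearest genes. Members and lists were chosen with earlier results of these data known. Alternatives were DESeq2 1.42.0, limma-voom (limma 3.58.1), other scalings, no filter, single experiments, the other library of repeated samples, blocks, and leaving out samples.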

Additional observations from a re-analysis of the deposited data

Results flagged for a closer look

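In 3 of 30 sets of 5 samples, 1 for each member and group, the sample farthest out stood apart from the nearest other by more than Dixon's critical share of the whole range of log2 CPM after the experiment effect was removed. Chance alone flags about 1 in 20 such sets. Acaca was highest in CTL 3, with a gap of 0.755 of the range. Acly was lowest in RED 2, with a gap of 0.733. Thrsp was highest in GREEN 2, with a gap of 0.788, and GREEN 2 also had the highest summed hepatocyte markers of the GREEN samples (89238 CPM).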

How the results depend on the processing

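Members past the threshold numbered 2 in RED versus CTL, 1 in GREEN versus RED and 6 in GREEN versus CTL. In RED versus CTL they numbered 1 with limma-voom and 0 in experiment 2 alone. In GREEN versus RED they numbered 2 with DESeq2, 3 in experiment 1 alone, 0 in experiment 2 alone and 4 with the experiment 1 library of the repeated samples. In GREEN versus CTL they numbered 3 with library totals and 2 in experiment 2 alone. Leaving out each sample gave 2 to 2, 0 to 4 and 4 to 6. Single-experiment fits have fewer samples, and CTL 5, RED 2, RED 3 and RED 4 were in both. The cause of the other differences was not tested. Leaving out each sample moved the log2 ratio of Scd2 over Scd1 over 2.75 to 3.66 (RED versus CTL), 3.62 to 4.55 (GREEN versus RED) and 6.58 to 7.84 (GREEN versus CTL), that of Acacb over Acaca over −1.47 to −1.01, −0.31 to 0.14 and −1.51 to −1.16, and that of Elovl6 over Elovl5 over −0.59 to 0.066, −0.069 to 0.60 and −0.29 to 0.26. Of the single members' values under all alternatives, 711 kept their side of the threshold and direction, 27 lost and 12 gained a call, 30 uncalled ones moved or changed sign, and no called one reversed.

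A replicate block by title number gave 2 members in RED versus CTL, 1 in GREEN versus RED and 5 in GREEN versus CTL, where Fasn was lost (−1.36, adjusted p = 0.062). A block by library code gave 1 member in GREEN versus RED, and a block by code in experiment 2 only, added after the data were seen, gave 3 (Scd2, Acaca and Thrsp). Over all genes the counts higher and lower in GREEN versus RED were 1586 and 528, against 2258 and 1564 with DESeq2, 3064 and 2286 in experiment 1, 76 and 1 in experiment 2, 2403 and 1738 with the experiment 1 library, 860 and 87 with the code block, 1189 and 94 without CTL and 720 and 2 without RED 5 and GREEN 5, which was also added after the data were seen. In experiment 2 alone they were 1132 and 75 in RED versus CTL, against 2326 and 326, and 2665 and 816 in GREEN versus CTL, against 4840 and 3051. In RED versus CTL, DESeq2 gave 2633 and 911.

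Scd2 in CTL samples rests on 14 to 79 estimated counts per library.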
